A study of Mus musculus with 12 samples.

Results

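Making a fatty acid, bending it with double bonds and lengthening it are the work of 3 groups of enzymes, and 10 of their genes were followed here in mouse T-ALL cells. The genes were taken by symbol from the deposited count tables, which listed 52535 genes, and all 10 were found. Acly, Acaca and Fasn supply carbon and build the saturated chain. Scd1, Scd2, Fads1 and Fads2 insert double bonds. Elovl1, Elovl5 and Elovl6 add carbon units to the finished chain.

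RNA was sequenced from 3 lymphoma lines, 240, 242 and 352, each grown from the T-cell lymphoma of a different Lck-Dlx5;Lck-MyrAkt2 mouse. In these mice the Lck promoter drives Dlx5, a homeobox gene, and a myristoylated, constantly active form of the kinase Akt2 in immature T cells, so PKF118-310-treated and control cells alike carried both transgenes, and both grew in medium with fetal serum, which itself brings in lipids. The treated cells received PKF118-310, an inhibitor that keeps β-catenin from binding Tcf proteins. The controls received placebo, according to the study's account. Each line gave 1 treated and 1 control library, so each group held 3 libraries. Per the labels a library was run in 2 lanes, 1 file each, but a legend of the study mentions 2 separate cultures per line and group. The lane reading was used, and if the files were separate cultures, the sample size and every p-value given here would differ. Their ages at sampling were not stated in the labels or methods. The comparison asks how the transcripts of these enzymes stood after PKF118-310, against placebo. Binding of β-catenin to Tcf proteins was not measured in these libraries.

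Acly cleaves citrate to acetyl-CoA in the cytosol, Acaca carboxylates acetyl-CoA to malonyl-CoA, and Fasn joins these units into palmitate. Scd1 and Scd2 place the first double bond in saturated chains and so make oleate and palmitoleate. Fads1 and Fads2 desaturate polyunsaturated chains at positions nearer the carboxyl end, Elovl6 extends palmitate, Elovl5 extends polyunsaturated chains and Elovl1 very long saturated ones. In liver and fat, many of these genes are transcribed under the sterol-regulated factors Srebf1 and Srebf2, and dividing lymphocytes draw on the same enzymes for new membrane.

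Depth was uneven. The libraries held 604984 to 13766638 counts after treatment and 3354980 to 13221186 in controls, the smallest being the treated library of line 242. A gene at 0 there could still stand at 4.96 counts per 1000000 (CPM), the worth of 3 counts, against 0.218 to 0.949 CPM in the other 5 libraries. It also had 11.8% mitochondrial counts, against 1.84% to 3.10% elsewhere, and 2321 CPM on 1687 olfactory and vomeronasal receptor genes, which T cells are not known to use, against 6.86 to 98.1 CPM elsewhere. T-cell markers, 10 genes in all, summed to 1871 to 4707 CPM in treated libraries and 2567 to 4505 CPM in controls, and each had counts in every library except Ptcra, which had 0 counts in the treated library of line 242. B-cell markers summed to 1.74 to 119 CPM in treated libraries and 0 to 0.744 CPM in controls, with the highest value again in treated line 242. Of the adipocyte markers, a cell type rich in these enzymes, Adipoq was at 0 in every library. The fitted change of each member is therefore given with and without line 242. Bulk RNA cannot tell fewer cells of a type from less RNA per cell.

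Start regions of a lipogenic and a desaturase gene are shown because Fasn and Fads2 lay on opposite sides of 0 in lines 240 and 352. The stretches are the 250 bases before the annotated start in RefSeq on GRCm38.p6, read 5′ to 3′ on the gene's strand, from chr11:120824548-120824797 on the minus strand for Fasn and chr19:10101504-10101753 on the minus strand for Fads2. Capitals mark a match to any of 5 motifs searched on both strands.
Fasn: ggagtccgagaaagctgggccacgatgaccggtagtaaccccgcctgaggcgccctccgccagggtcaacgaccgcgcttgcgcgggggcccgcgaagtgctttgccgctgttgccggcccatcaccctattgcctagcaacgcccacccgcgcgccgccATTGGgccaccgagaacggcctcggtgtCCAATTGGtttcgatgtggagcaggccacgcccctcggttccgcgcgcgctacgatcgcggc
Fads2: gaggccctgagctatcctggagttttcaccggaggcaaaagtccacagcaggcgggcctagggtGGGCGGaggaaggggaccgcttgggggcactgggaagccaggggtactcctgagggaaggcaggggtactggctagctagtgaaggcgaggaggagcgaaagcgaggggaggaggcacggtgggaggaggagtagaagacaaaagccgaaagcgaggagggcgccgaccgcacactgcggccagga
The Fasn stretch held 3 CCAAT boxes (CCAAT), 2 of them overlapping on opposite strands, and the Fads2 stretch held a GC box (GGGCGG). In windows reaching 50 bases past the start, CCAAT occurred in 37.4% and GGGCGG in 35.7% of 32851 RefSeq promoter windows. The sterol regulatory element TCACNCCAC, in 1.24% of all windows, was in none of the windows of the 7 members that had one. Scd1, Scd2 and Fads1 had no window, so these desaturases were not searched. The Acaca window began at chr11:84195188, inside the gene, which starts at 84129672 in the files. The E-box CACGTG, in 7.15% of all windows, was in that of Elovl5. The Tcf motif CTTTGA, in 16.0%, was in windows of Elovl1 and Elovl6. A match describes letters only.

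After PKF118-310 the desaturases fell in lines 240 and 352, whereas the synthesis and elongation enzymes differed less from control. In the fit of these 4 libraries (edgeR's quasi-likelihood test on counts, each line its own block, p adjusted by Benjamini-Hochberg over all genes), all 4 desaturases fell, with log2 fold changes of -0.83 to -1.96, whereas 0 of 3 synthesis enzymes and 0 of 3 elongases passed an adjusted p of 0.05 in either direction. Among all 11760 genes tested there, 5.92% were called lower and 5.01% higher. The median log2 fold change was -1.21 over the desaturases, -0.08 over the synthesis enzymes and -0.05 over the elongases, against -0.01 over all genes. With line 242 included, 0 of the 10 members and 0 of 10331 genes (0%) passed edgeR's quasi-likelihood test, while 570 genes had an unadjusted p under 0.05. Other tools called desaturases over 3 lines as well: DESeq2 called Scd2 lower (0.0968% of all genes were called lower), the likelihood ratio test called Scd2, Fads1 and Fads2 (0.281%), and limma voom with sample weights called all 4 (4.59%). The voom fit gave the libraries of line 242 weights of 0.40 and 0.37, against 1.42 to 1.79 for the others, so it rested mostly on lines 240 and 352. DESeq2 called 45 genes in either direction. Without the cell line as a block, none of the 4 calls in lines 240 and 352 held (edgeR quasi-likelihood adjusted p = 0.9997 for each).

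**Figure D1:**
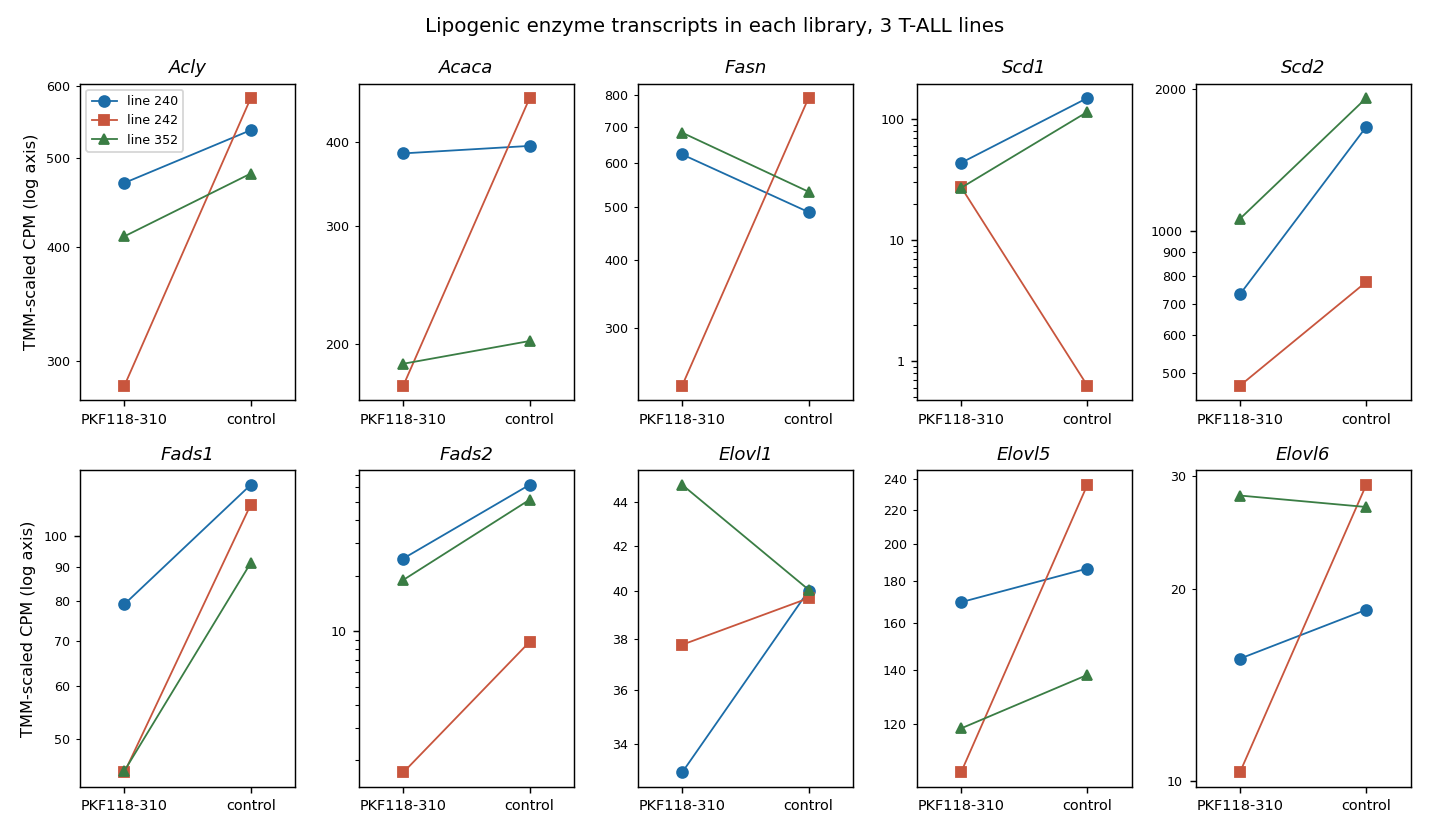
TMM-scaled CPM (log axis, a separate range for each gene) of the 10 enzymes, with PKF118-310 on the left and control on the right of each panel and each line's 2 libraries joined. The 4 desaturases slope the same way in lines 240 and 352, Fasn slopes the other way in these lines, and line 242 slopes against both of them in Fasn and Scd1.

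Acly (chr11:100476353-100528000, minus strand, positions in mm10 as the files give them) makes the cytosolic acetyl-CoA from which chains are built. Its TMM-scaled CPM, the counts as a rate of the library's total after scaling by the trimmed mean of M-values, were 470, 282 and 411 in treated lines 240, 242 and 352, against 537, 582 and 481 in their controls. Every treated value lay below every control value. Only Acly and Fads1 of the 10 members were separated in this way over 3 lines, where 3.15% of all genes were lower and 2.95% higher without overlap. The fitted log2 fold change was -0.44 ± 0.22 over 3 lines (SE, adjusted p = 0.842 in edgeR's quasi-likelihood test) and -0.21 ± 0.11 over lines 240 and 352 (adjusted p = 0.265). The separation was thus small in lines 240 and 352, at 0.875 and 0.854 of control, and larger in line 242, at 0.484.

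Acaca (chr11:84129672-84401651, plus strand) encodes the carboxylase that commits acetyl-CoA to chain building. It had 385, 173 and 187 CPM in treated lines 240, 242 and 352, against 395, 465 and 202 CPM in controls. The lines differed more than the groups did, since both libraries of line 240 lay well above both of line 352. Its within-line log2 changes were -0.04 for 240, -1.42 for 242 and -0.11 for 352. The fits gave -0.46 ± 0.30 over 3 lines and -0.08 ± 0.11 without line 242 (edgeR quasi-likelihood adjusted p = 0.843 and 0.710).

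Fasn (chr11:120805846-120824547, minus strand), the multifunctional synthase that releases palmitate, went apart from the desaturases. Its levels were 623 and 682 CPM in treated lines 240 and 352, against 488 and 532 CPM in controls, and 235 CPM in treated against 789 CPM in control line 242. Treated cells were thus the higher of the pair in lines 240 and 352 and the lower in line 242, and the control of line 242 was the highest of all 6 libraries. The ratios of treated to control were close in the first of these lines, 1.27 (95% counting interval 1.20 to 1.36) in line 240 and 1.28 (1.24 to 1.32) in line 352, against 0.298 (0.249 to 0.354) in line 242. Without line 242 the log2 fold change was 0.35 ± 0.12 (edgeR quasi-likelihood adjusted p = 0.0697), which did not pass. It passed with edgeR's likelihood ratio test (adjusted p = 0.0443), with no filter on low counts (0.0167) and with lane 1 alone (0.0427). It did not pass with DESeq2 (adjusted p = 0.0724). In the quasi-likelihood test it also fell short with DESeq2 size factors (0.0603), library totals (0.0576) and a stricter filter (0.0830). Lane 2 alone (0.121), line 352 halved (0.0662) and no block (0.9997) fell short in that test too. With line 242 the direction turned, to -0.26 ± 0.46 (adjusted p = 0.946).

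Scd1 (chr19:44394451-44407709, minus strand) is the main stearoyl-CoA desaturase of liver and fat. It had 43.4 and 27.0 CPM in treated lines 240 and 352, against 149 and 115 CPM in controls. Over these 4 libraries Acly, Scd1, Scd2, Fads1 and Fads2 were lower without overlap, as were 13.0% of all genes, and Fasn was higher without overlap, as were 14.6%. For Scd1 the counts were 137 and 391 after treatment, against 604 and 1568. Scd1 fell by 1.96 ± 0.13 on the log2 scale in these lines (SE, n = 2 pairs, edgeR quasi-likelihood adjusted p = 7.72e-06). This was the deepest change among the members, and only 45 of 10331 genes in line 240 and 27 in line 352 had a lower log2 change.

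Line 242 stood opposite for Scd1. It had 16 counts in the treated library and 2 counts in the control, or 27.5 and 0.625 CPM, a ratio of 43.9 with a 95% counting interval of 10.3 to 394. The control of line 242 thus had almost no Scd1 transcript where the other 2 controls had over 100 CPM, and its treated level was close to that of treated line 352. With all lines the fitted log2 change was -1.11 ± 1.10 (edgeR quasi-likelihood adjusted p = 0.873), and it turned to 0.16 without line 240 and to 0.30 without line 352. It also moved with the tool, to -0.42 with DESeq2, -0.43 with the likelihood ratio test and -1.94 with voom, and it passed edgeR's quasi-likelihood test when no filter was applied (-1.10, adjusted p = 0.0206). In treated line 242, 14 of 1685 olfactory and vomeronasal receptor genes with a known length (0.831%) had as many counts per kilobase as Scd1 or more, and these genes averaged 0.247 counts per kilobase against 3.27 for Scd1. The part of this background in the Scd1 value was not tested.

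Scd2 (chr19:44293676-44306864, plus strand) encodes the stearoyl-CoA desaturase that predominates in brain. It was the most abundant of the 10 transcripts per length in controls, at 266 ± 109 CPM per kilobase of exon (SD, n = 3), against 18.0 ± 15.9 for Scd1. Treated lines 240, 242 and 352 had 733, 469 and 1059.5 CPM, against 1662, 779 and 1913 CPM in controls. Each line's treated library lay below its own control, but treated line 352 stood above the control of line 242. Scd2 fell by 1.02 ± 0.14 on the log2 scale in lines 240 and 352 (edgeR quasi-likelihood adjusted p = 0.00112). Over 3 lines the change was -0.89 ± 0.21 and did not pass that test (adjusted p = 0.842), whereas DESeq2 called it (adjusted p = 0.00664).

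The balance of the 2 stearoyl-CoA desaturases moved with treatment too. Scd1 made up 5.60% of Scd1 plus Scd2 counts in treated line 240 (95% Wilson interval 4.75% to 6.58%), against 8.24% in its control (7.63% to 8.89%). In line 352 it made up 2.49% (2.25% to 2.74%) after treatment, against 5.66% (5.39% to 5.93%). The intervals, which cover counting error only, did not overlap within either line. In line 242 the shares lay the other way round, at 5.54% (3.44% to 8.80%) after treatment and 0.0803% (0.0220% to 0.292%) in the control. Scd2 therefore gave over 90% of these counts in every library.

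Fads1 (chr19:10182888-10196870, plus strand) and Fads2 (chr19:10064164-10101503, minus strand) are neighbours on chromosome 19 and encode the desaturases that act in turn on polyunsaturated chains. Fads1 had 79.2, 44.7 and 44.9 CPM in treated lines 240, 242 and 352, against 119, 111 and 91.3 CPM in controls. Every treated value lay below every control value, and every line showed the same direction. Fads1 fell by 0.83 ± 0.13 on the log2 scale in lines 240 and 352 (edgeR quasi-likelihood adjusted p = 0.00220). Over 3 lines its change was -0.91 ± 0.18 (adjusted p = 0.842).

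Fads2 encodes the enzyme that takes the first step on linoleate and linolenate. It had 24.7, 1.72 and 18.9 CPM in treated lines 240, 242 and 352, against 62.0, 8.76 and 51.5 CPM in controls. Treated cells were lower in each line, but both libraries of line 242 lay below all others. The values of line 242 rest on 1 count after treatment and 28 in the control, a ratio of 0.196 whose counting interval of 0.00480 to 1.19 includes 1. Fads2 fell by 1.40 ± 0.14 on the log2 scale in lines 240 and 352 (edgeR quasi-likelihood adjusted p = 0.000172). Over 3 lines the change was -1.44 ± 0.22, with the smallest unadjusted p of the members (0.0012), and the edgeR quasi-likelihood adjusted p was 0.842.

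**Figure D2:**
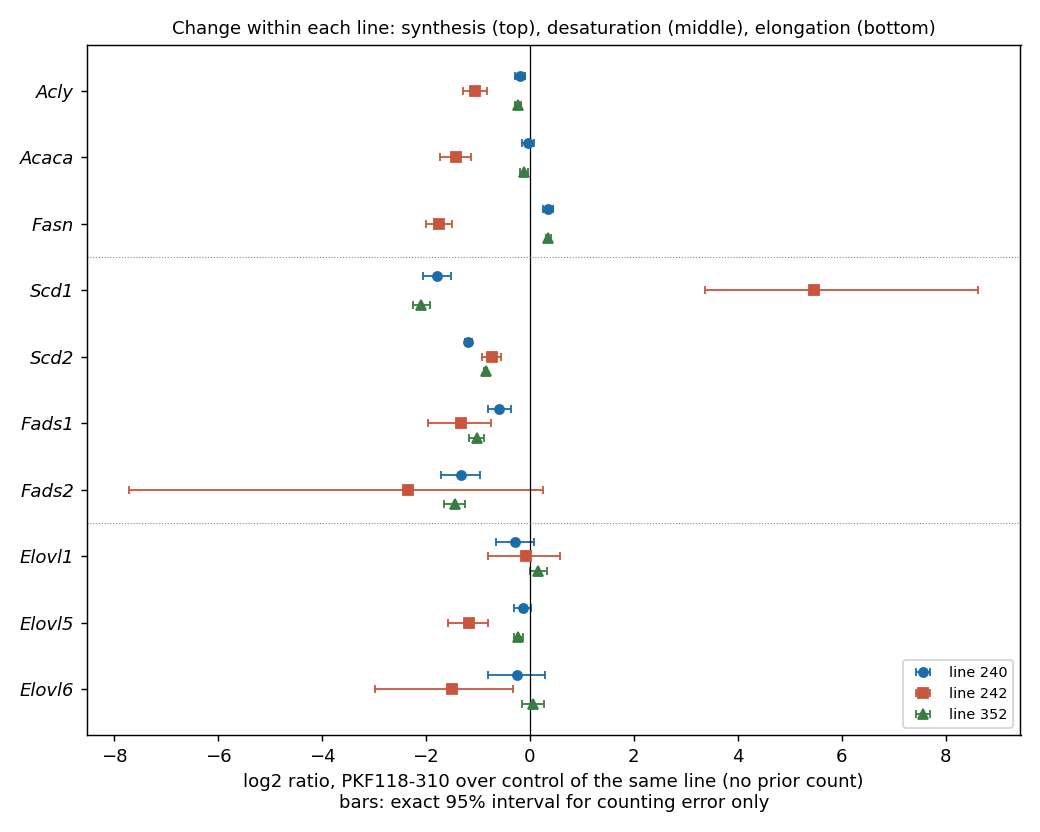
Log2 ratio of PKF118-310 to control within each line, without a prior count, for synthesis enzymes at the top, desaturases in the middle and elongases at the bottom, with exact 95% intervals for counting error only. Acly, Scd2 and Fads1 lie left of 0 with their intervals in all 3 lines, and Scd1 of line 242 lies at 5.46, far right of every other point.

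None of the 3 elongases passed edgeR's test in either fit. Elovl1 (chr4:118428093-118432953, plus strand), which builds very long saturated chains for sphingolipids, had 33.0, 37.8 and 44.8 CPM in treated lines 240, 242 and 352, against 40.0, 39.7 and 40.1 CPM in controls. Its controls were nearly equal, and the treated values lay on both sides of them. The fitted log2 change was -0.02 ± 0.18 over 3 lines and -0.01 ± 0.15 without line 242 (edgeR quasi-likelihood adjusted p = 0.993 and 0.980). Its sign depended on the lane, since lane 2 alone gave 0.27 and 0.26.

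Elovl5 (chr9:77917364-77984519, plus strand), which lengthens the products of Fads2, had 170, 105 and 119 CPM in treated lines 240, 242 and 352, against 187, 236 and 138 CPM in controls. Each treated library was below its control, although treated line 240 exceeded the control of line 352. The log2 change was -0.44 ± 0.23 over 3 lines and -0.18 ± 0.10 without line 242, and neither passed (edgeR quasi-likelihood adjusted p = 0.842 and 0.292). Elovl6 (chr3:129532355-129638495, plus strand), which takes palmitate to stearate, the substrate of the Scd enzymes, was the least abundant member per length in controls, at 3.86 ± 0.86 CPM per kilobase (SD, n = 3). It had 15.5, 10.3 and 28.0 CPM in treated lines 240, 242 and 352, against 18.5, 29.1 and 26.8 CPM in controls. The 2 groups overlapped, and the log2 change of -0.37 ± 0.32 over 3 lines, or -0.05 ± 0.18 without line 242, missed the threshold (edgeR quasi-likelihood adjusted p = 0.858 and 0.907).

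**Figure D3:**
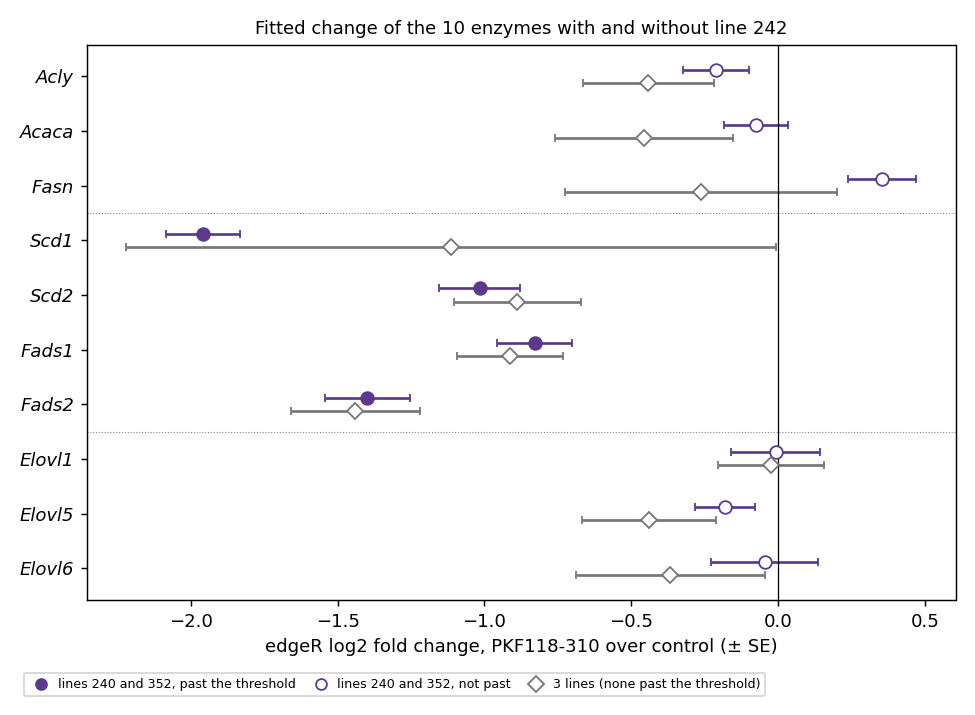
Fitted log2 fold change of PKF118-310 over control with its standard error, in lines 240 and 352 (circles, filled where the adjusted p was below 0.05) and in all 3 lines (grey diamonds). The 4 desaturases are the filled circles, at -0.83 to -1.96, and the bar of Scd1 widens to 1.10 when line 242 enters.

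The order of levels per kilobase of exon in controls ran from Scd2 through Acly (101 ± 9.58), Fasn (55.1 ± 14.8), Elovl5 (53.1 ± 14.0), Fads1 (22.3 ± 2.98), Acaca (20.7 ± 7.98), Scd1 (18.0 ± 15.9), Elovl1 (14.7 ± 0.0725) and Fads2 (12.4 ± 8.56) to Elovl6, in CPM per kilobase (SD, n = 3). Fasn and Elovl5, Fads1 and Acaca, and Acaca and Scd1 lay within each other's spread. Elovl1 lay within the wide spread of its neighbours Scd1 and Fads2, while its own was narrow. Scd1 and Fads2 varied most between control lines for their level, and line 242 was the lowest control for both. Their places in this order rest on line 242. Controls of lines 240 and 352 had 30.5 and 23.4 CPM per kilobase of Scd1, above 24.7 and 19.0 of Fads1. Fads2 had 18.8 and 15.6 there, above Elovl1 with 14.7 in each.

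Line 242 set the members apart in another way. Its treated library was at 0.298 to 0.484 of control for all 3 synthesis enzymes and at 0.354 and 0.443 for Elovl6 and Elovl5, while lines 240 and 352 held these 5 genes between 0.838 and 1.28. Elovl1, at 0.951 (0.576 to 1.50), did not share this. Over the 3 lines, 6 of 10 members had a log2 change below 0 in every line, against 18.8% of all genes. Log2 changes of all 10331 genes also spread wider in line 242, with an SD of 1.32 and 55.0% of genes below 0, against SDs of 0.52 and 0.47 in lines 240 and 352. The 10 T-cell markers summed to 1871 CPM in treated and 3986 CPM in control cells of line 242. Rag1 differed most among them, with 213 and 1372 CPM, and Cd3e alone was higher after treatment, with 250 and 181 CPM. The sums were 4707 and 4505 CPM in line 240 and 1954 and 2567 CPM in line 352. Depth, mitochondrial share, receptor background and T-cell markers thus moved with these values in line 242, and their part in them was not tested. Differences between lines were also tested in the same model, over treated and control libraries together. There 550 of 10331 genes (5.32%) passed and Fads2 was the only member among them (edgeR quasi-likelihood adjusted p = 0.0280). Between lines 240 and 352 alone, 44.7% of genes and 6 of 10 members differed. Fads2 was not among them (edgeR quasi-likelihood adjusted p = 0.111).

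Of the adipocyte markers, only Fabp4 moved with Scd1 in line 352. The list summed to 23.4 CPM in treated and 80.2 CPM in control cells of that line. Nearly all of it was Fabp4, a fatty acid carrier also made by other cells, with 320 and 1060 counts. Over the lines the list summed to 1.27 to 23.4 CPM after treatment and 0 to 80.2 CPM in controls. Plin1, Lep and Cidec had at most 6 counts in any library and Adipoq had 0. In line 240, Fabp4 had 2 counts in each library and the log2 change of Scd1 was -1.77. Any part of adipocytes in the Scd1 values was not tested.

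Around the 10 enzymes, 8 lists of related lipid genes held 76 genes, of which 75 were in the files and 61 were tested in lines 240 and 352. There 7 fell, 3 rose and 51 did not pass, beside 5.92% lower and 5.01% higher over all genes, and over 3 lines 0 of 60 passed edgeR's test. The list around acetyl-CoA, malonyl-CoA and NADPH, called the supply list here, had 3 of 6 tested genes lower. It was not limited to genes that feed synthesis, as it also held Mlycd and Mid1ip1. Idh1, a cytosolic source of NADPH, had 13.9 and 17.0 CPM in treated lines 240 and 352, against 43.7 and 31.5 CPM in controls, and fell by 1.17 ± 0.20 on the log2 scale (edgeR quasi-likelihood adjusted p = 0.00345). Acss2, which makes acetyl-CoA from acetate, fell by 0.83 ± 0.15 (edgeR adjusted p = 0.00512). Slc25a1, the mitochondrial citrate carrier that supplies Acly, fell by 0.64 ± 0.15 (edgeR adjusted p = 0.0185). Line 242 had 22.3 CPM of Idh1 in treated against 30.3 CPM in control cells, and 17.2 against 27.8 CPM of Slc25a1. The ratios of 0.736 (counting interval 0.378 to 1.32) and 0.617 (0.286 to 1.19) set no direction, as both intervals include 1. Acss2 had 20.6 CPM in treated and 18.1 CPM in control cells of line 242, a ratio of 1.14 whose counting interval of 0.555 to 2.14 sets no direction.

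Other desaturases and their electron carriers had 0 of 5 tested genes past the threshold, other elongases and enzymes of the elongation cycle 0 of 4, and glycerolipid assembly 0 of 11. Among 4 acyl-CoA synthetases, which activate fatty acids, Acsl3 fell by 0.65 ± 0.12 in lines 240 and 352 (edgeR quasi-likelihood adjusted p = 0.00477), and its levels of 57.4, 53.2 and 50.0 CPM in treated lines 240, 242 and 352 lay below 88.9, 75.4 and 79.4 CPM in controls. Oxidation of fatty acids gave 2 of 16 higher and 0 lower, beside 5.01% higher and 5.92% lower over all genes. Cpt1a, which admits long-chain acyl groups to mitochondria, had 240, 172 and 194 CPM in treated lines 240, 242 and 352, against 133, 92.2 and 162 CPM in controls. Its groups did not overlap, and it rose by 0.53 ± 0.13 in lines 240 and 352 (edgeR adjusted p = 0.0233). Acadvl, the very long-chain acyl-CoA dehydrogenase, rose by 0.42 ± 0.12 (edgeR adjusted p = 0.0474), and line 242 had 89.3 CPM of it in treated and 51.9 CPM in control cells. Mecr, a reductase of mitochondrial fatty acid synthesis, was the only 1 of 5 genes of that list to pass and rose by 0.65 ± 0.15 in lines 240 and 352 (edgeR adjusted p = 0.0173). In line 242 it had 18.9 CPM in treated and 19.7 CPM in control cells.

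**Figure D4:**
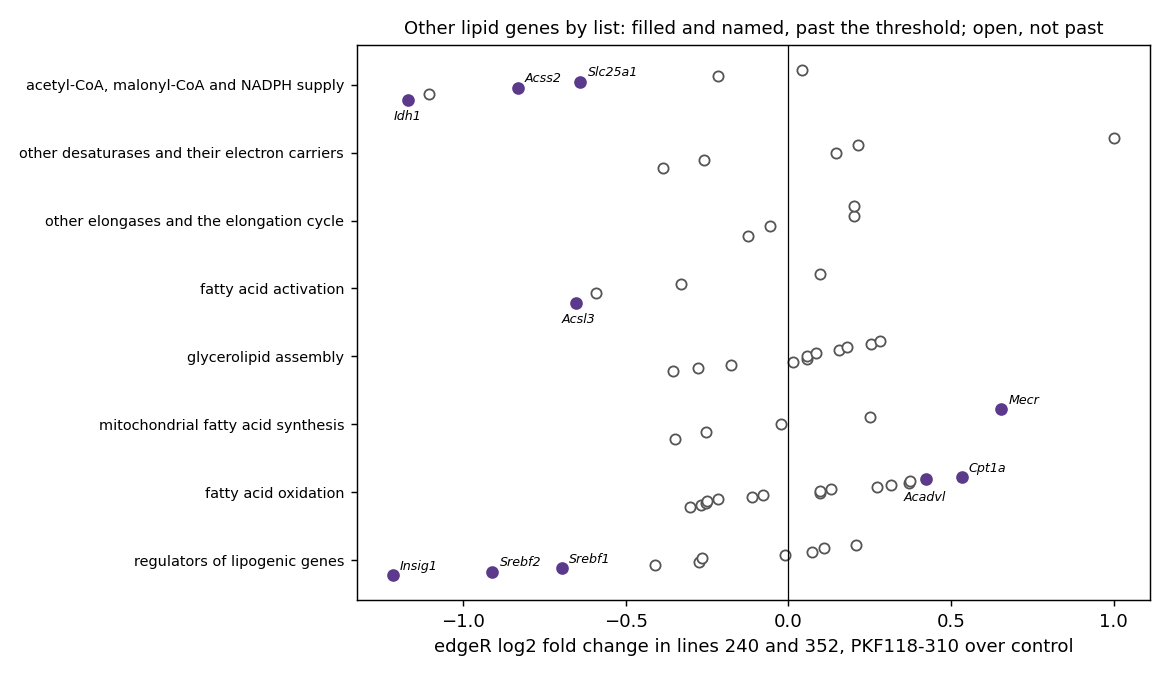
Log2 fold change in lines 240 and 352, PKF118-310 over control, of 61 lipid genes outside the 10 enzymes, in 8 lists, with named filled points for the 10 genes whose adjusted p was below 0.05. The 7 that fell lie in the supply, activation and regulator lists, and the 3 that rose in the mitochondrial synthesis and oxidation lists.

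Among 10 tested regulators of lipogenic genes, lines 240 and 352 had 3 that fell, 0 that rose and 7 short of the threshold. Over all genes there, 5.92% were called lower and 5.01% higher. Srebf2, whose protein drives sterol synthesis genes, had 267, 204 and 416 CPM in treated lines 240, 242 and 352, against 485, 429 and 805 CPM in controls. All treated values lay below all controls, and it fell by 0.91 ± 0.12 in lines 240 and 352 (edgeR quasi-likelihood adjusted p = 0.000720). Insig1, which holds the Srebf proteins in the endoplasmic reticulum and is itself one of their targets, had 46.3, 68.7 and 39.1 CPM in treated lines, against 104, 144 and 93.3 CPM in controls, again without overlap. It fell by 1.22 ± 0.12 (edgeR adjusted p = 0.000118). Srebf1, the relative tied most closely to fatty acid genes, had 78.9, 53.2 and 130 CPM in treated lines, against 122, 71.6 and 218 CPM in controls. Each line was lower after treatment though the groups overlapped, and Srebf1 fell by 0.70 ± 0.11 (edgeR adjusted p = 0.00204). Scap, the escort of the Srebf proteins, had a log2 change of -0.01 ± 0.11 (edgeR adjusted p = 0.967).

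Fads2 had the smallest p of the members over 3 lines, and its 3 within-line log2 changes, -1.32, -2.16 and -1.43 in lines 240, 242 and 352, were set beside those of 7182 genes averaging at least 20 CPM. The nearest by root mean square difference were Mxd3 (0.313), Ace (0.393), Msmo1 (0.394), Hmgcs1 (0.395) and Nrm (0.460). Msmo1 and Hmgcs1 encode enzymes of sterol synthesis, Mxd3 a partner of Max, Ace a peptidase and Nrm a protein of the nuclear envelope. Among the members Fads1 was the nearest, at 0.689. These distances cover 3 lines, and the value of Fads2 in line 242 rests on 1 count. In the same treated library Mxd3 had 3 counts, Ace 4 and Nrm 4, whereas Msmo1 had 22 and Hmgcs1 110. The order of these neighbours is thus loose.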

How the data were processed

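RNA from 6 libraries (3 lines, PKF118-310 and control) was sequenced as poly(A)-selected, stranded libraries, per the labels. The authors deposited raw counts per gene, not normalized, for each of 2 lanes per library, 12 files in all. The processing notes name HISAT2, HTSeq, edgeR and mm10, whereas the study's methods name TopHat. For versions, annotation and the strand setting: not given in the sources used here. Lane counts were summed, because the lanes of 4 libraries differed within sampling noise (chi-square per degree of freedom 0.982 to 1.02) and the labels give 1 library per line and group. In line 352 this value was 2.05 in treated and 2.01 in control cells.

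The summed counts were fitted with edgeR 4.0.16 under R 4.3.3 (filterByExpr, TMM, quasi-likelihood F test, cell line as a block, Benjamini-Hochberg over all genes kept, threshold 0.05), over 3 lines and over lines 240 and 352. A line is 1 animal, so its 2 libraries were taken as a pair, and their deviations from the group means correlated across genes at 0.67, 0.30 and 0.79 in lines 240, 242 and 352. With 1 library per line and group, p-values cover only these lines, and edgeR's estimate of variation borrows from all genes tested. They therefore do not rest on a gene's own spread between pairs alone. Each SE beside an edgeR log2 fold change was that change, without sign, over the square root of its F statistic. Log2 changes within a line used a prior count of 2 and no test, with exact conditional intervals for the ratio of counts. Intervals and the 3-count limit cover counting error only. Exon lengths came from GENCODE vM21 and promoters from RefSeq. Scripts were tested on simulated counts.

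The members, lists and the fit without line 242 were chosen with earlier results of these data known. All 10 members were named, with up to 4 genes per list past the threshold, 3 regulators and the 5 nearest patterns. Scap was named after its values were seen. Alternatives were no block, DESeq2 (1.42.0) size factors or test, library totals, edgeR's likelihood ratio test, limma (3.58.1) voom with sample weights, no or a stricter filter, each lane alone, halved counts of line 352, other prior counts, thinning to the smallest library, and each line left out.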

Additional observations from a re-analysis of the deposited data

Results flagged for a closer look

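Fasn moved against itself between lines. Its log2 change was -1.74 in line 242, while lines 240 and 352 gave 0.35 and 0.36. The difference was not tested, since each line has 1 library per group.

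Scd1 had a log2 change of 4.90 in line 242, against -1.77 and -2.07 in lines 240 and 352, and this difference was not tested. Thinning every library to the smallest total gave 3.27 in line 242. The control there had 2 counts of Scd1 before thinning. The thinned value thus rests largely on the prior count of 2 and is no estimate matched for depth.

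Olfactory and vomeronasal receptor genes, outside every comparison, summed to 2321 CPM in treated line 242, against 6.86 CPM in its control. In that library 30.8% of the 1687 genes had a count, against 1.30% in the control.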

How the results depend on the processing

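Over 3 lines, 0 genes and 0 members passed with and without the replicate block. DESeq2 called 45 genes and 1 member, the likelihood ratio test 85 and 3, voom with sample weights 801 and 4, and no filter 312 and 3. Leaving out a line gave 3 to 1285 genes and 0 to 4 members, the upper values without line 242. In lines 240 and 352, dropping the replicate block left 0 genes and 0 members (adjusted p = 0.9997 for the 4 desaturases). DESeq2 called 268 genes there, a stricter filter 502 and lane 2 alone 753, against 1285. The members' median log2 change was -0.26 in line 240 alone and -0.22 in line 352 alone, against -0.20.

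For differences between lines, DESeq2 called 1665 genes and 2 members, the likelihood ratio test 2883 and 2, voom 4376 and 7, no filter 3009 and 3, lane 1 alone 847 genes, and leaving out a line 209 to 5257 genes and 1 to 6 members.

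Directions turned over 3 lines for Fasn (0.10 with voom, and -0.66 to 0.35 as each line was left out, the highest without line 242), Scd1 (-1.96 to 0.30, with 0.16 without line 240 and 0.30 without line 352) and Elovl1 (0.034 with voom, 0.27 with lane 2, and -0.16 to 0.069, the highest without line 240). In lines 240 and 352 they turned for Elovl1 (0.0055 with library totals, 0.26 with lane 2) and Elovl6 (0.11 with lane 2, 0.028 with line 352 halved). The cause was not tested beyond the lines left out. Thinning to the smallest library moved 10 of the within-line changes beyond their counting intervals, among them Elovl1 in line 352 (-0.31, against 0.16). These intervals belong to the full counts and do not cover the sampling error that thinning adds, so such moves cannot show a dependence on depth. Depth limits line 242 most, where Fads2 had 1 count and Elovl6 had 6.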
